A study of Mus musculus with 21 samples.

Results

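The enzymes and markers of sustentacular cells examined here were 9 genes, Ermn, Sec14l3, Cbr2, Ugt2a1, Ugt2a2, Gstm2, Muc2, Slc2a3 and Aldh1a7, chosen by gene symbol as a named list. All 9 were found among the 22786 genes present in both deposited tables, and each passed the filter of every comparison, an average of 1 TPM or more (TPM is an abundance scaled by transcript length and by library). Their RNA was measured in 21 libraries, each made from cells that had been sorted out of the main olfactory epithelium of a transgenic mouse. Every mouse carried a tetO construct for mCherry with HyperTRIBE, an RNA-editing domain, either alone (tetO-HyperTRIBE_mCherry, HT) or joined to the RNA-binding protein Mex3a (tetO-Mex3a_HyperTRIBE_mCherry, MexHT). No mouse without a construct was analysed here, and the labels used here give no ages.

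The construct was driven by gg8tTA together with OMPtTA, which in the labels mark immature and mature olfactory sensory neurons (OSN), or by gg8tTA alone, for immature OSN. Mice with both drivers gave 6 libraries of OSN and 5 of mCherry-negative cells for MexHT, and 3 of either kind for HT. Mice with gg8tTA alone, all MexHT, gave 2 of either kind. Sorted OSN and mCherry-negative cells of one construct, driver set and replicate number came from one mouse, per the labels, and MexHT OSN replicate 6 has no mCherry-negative partner. The mCherry-negative fraction is every cell that did not show the construct's colour, so it mixes supporting cells with basal, glandular, immune and connective cells and with neurons that stayed dark.

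Sustentacular cells are the tall supporting cells of the olfactory epithelium. They surround the dendrites of the OSN, reach the airway surface with their microvilli, and hold large amounts of the enzymes that oxidise, reduce and conjugate odorants and toxic vapours. Among the listed genes, Cbr2 is a carbonyl reductase, Aldh1a7 a cytosolic aldehyde dehydrogenase, Ugt2a1 and Ugt2a2 are UDP-glucuronosyltransferases that attach glucuronic acid to small molecules, and Gstm2 is a mu-class glutathione S-transferase. Sec14l3 is a lipid-binding protein of the Sec14 family, Slc2a3 the high-affinity glucose transporter GLUT3, Muc2 a secreted gel-forming mucin, and Ermn (ermin) an actin-binding cytoskeletal protein best known from oligodendrocytes.

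The sequence that limits a reading of the 2 UDP-glucuronosyltransferases is the point where their transcripts merge. On the mouse build GRCm38 (mm10), with the GENCODE M21 annotation, Ugt2a1 lies on chromosome 5 from 87459490 to 87490871 and Ugt2a2 from 87459490 to 87482260, both on the minus strand. Each reference transcript has 7 exons, of which 2 are its own and 5 are shared with the other gene, and 1771 bases from the junction onward are identical. The last 40 bases of each gene's own exons (lower case) and the first 40 bases of the shared exons (capitals) read as follows, 5′ to 3′ on the transcribed strand.
Ugt2a1: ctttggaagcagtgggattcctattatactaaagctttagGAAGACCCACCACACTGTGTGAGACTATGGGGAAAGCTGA
Ugt2a2: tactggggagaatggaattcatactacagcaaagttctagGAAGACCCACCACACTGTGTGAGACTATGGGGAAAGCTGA
Between these genes, only a read that reaches the lower-case side or the exon before it can be told apart. Of all windows of 50 bases along the exons, 97.0% in Ugt2a1 and 93.6% in Ugt2a2 also occur in another annotated gene, including the overlapping model Gm43638. How the deposited values assigned such reads is not given in the sources used here, so the split between Ugt2a1 and Ugt2a2 is uncertain throughout.

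The other 7 genes stand apart more clearly. Cbr2 (chromosome 11, 120729489 to 120732114) shared 14.4% of its windows with another gene, Gstm2 (chromosome 3, 107981702 to 107986453) 8.3% and Aldh1a7 (chromosome 19, 20692953 to 20727562) 7.5%, the last with its close relative Aldh1a1. Ermn (chromosome 2, 58045113 to 58052864) shared 0.8%, and 237 of its exon bases lie opposite exons of Galnt5 on the other strand. Sec14l3 (chromosome 11, 4064841 to 4077736), Muc2 (chromosome 7, 141690340 to 141754693) and Slc2a3 (chromosome 6, 122727809 to 122801640) shared 0.0%.

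The libraries held 7425287 to 15215642 counts, as recovered from the steps between TPM values, and every member reached at least 4 counts in every library. Mex3a stood at 328.5 to 1271 TPM in MexHT OSN and at 23.96 to 61.5 TPM in HT OSN with both drivers, the order the labels give. In mCherry-negative cells with both drivers it stood at 57.81 to 206.8 TPM in MexHT and 29.31 to 74.35 TPM in HT, overlapping ranges. With gg8tTA alone it was 211.3 and 101.1 TPM in mCherry-negative cells and 460.3 and 1632 TPM in OSN. Whether the mCherry-negative cells were free of the construct was not tested. The mCherry-negative libraries were not free of neurons: Omp, which marks mature OSN, stood at 46.9 to 1431 TPM in the MexHT and at 1093 to 2159 TPM in the HT ones with both drivers. Summed markers of connective tissue and vessels stood at 7832 to 23580 TPM in the mCherry-negative libraries with both drivers and at 95.1 to 325.1 TPM in OSN. Xist, a transcript of female cells, stood at 55.3 to 162.5 TPM in every MexHT library with both drivers, against 0.126 to 60.3 TPM in HT OSN, so construct and sex were partly mixed. One library stood apart for the genes described here: MexHT mCherry-negative replicate 1 had the highest level of 7 of the 9 genes in its group. Its summed level of 9 other sustentacular markers was 2807 TPM, against 917.5 to 1584 TPM in the other 4 libraries of its group, and its horizontal basal cell markers summed to 1129 TPM, against 203.0 to 420.9 TPM. Its ensheathing glia markers summed to 220.2 TPM, against 20.08 to 34.96 TPM, and its microvillous cell markers to 688.6 TPM, against 122.3 to 339.2 TPM. The part of these cells in its member levels was not tested. Values without this library are given where leaving it out moved an estimate much.

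The most abundant member was Cbr2. It stood at 1166, 246.3, 238.7, 402.8 and 236.3 TPM in MexHT mCherry-negative replicates 1 to 5, and at 85.3 to 264.4 TPM in the 6 MexHT OSN libraries, with a median of 136.5. The groups overlapped, because OSN replicate 6 lay above 3 of the 5 mCherry-negative libraries. In HT mice Cbr2 was 424.1, 195.3 and 226.2 TPM in mCherry-negative cells and 454.6, 141.8 and 178.0 TPM in OSN of replicates 1 to 3. With gg8tTA alone it was 136.2 and 349.4 TPM in mCherry-negative cells and 58.9 and 93.8 TPM in OSN.

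Sec14l3 had another order. In MexHT mCherry-negative replicates 1 to 5 it stood at 132.0, 35.6, 46.2, 29.7 and 19.1 TPM, and in MexHT OSN at 49.2 to 164.6 TPM with a median of 70.3. Apart from replicate 1, no mCherry-negative library reached the lowest OSN library. In HT mice it was 85.2, 47.4 and 31.3 TPM in mCherry-negative cells and 437.7, 109.2 and 140.2 TPM in OSN, with no overlap. With gg8tTA alone all 4 values lay between 52.4 and 56.6 TPM.

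Slc2a3 parted the fractions most widely. It was 31.4 to 58.3 TPM in MexHT mCherry-negative cells, with a median of 52.1, and 3.001 to 4.37 TPM in MexHT OSN, with a median of 3.69. In HT mice it was 41.1, 17.7 and 61.4 TPM in mCherry-negative cells and 7.46, 3.02 and 3.07 TPM in OSN. Fractions did not overlap in either construct, nor with gg8tTA alone, where mCherry-negative cells had 14.9 and 10.6 TPM and OSN 4.56 and 2.69 TPM.

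Gstm2 was 172.6, 31.5, 49.2, 55.4 and 27.3 TPM in MexHT mCherry-negative replicates 1 to 5 and 7.22 to 34.4 TPM in MexHT OSN, with a median of 11.8. Aldh1a7 was 16.0, 10.4, 17.7, 11.2 and 10.8 TPM in the same mCherry-negative libraries and 1.32 to 5.53 TPM in OSN, with a median of 3.17. Aldh1a7 did not overlap between these fractions, while for Gstm2 OSN replicate 6 lay above mCherry-negative replicates 2 and 5. In HT mice Gstm2 was 38.0, 38.9 and 43.1 TPM in mCherry-negative cells and 54.0, 20.1 and 16.8 TPM in OSN, so only OSN replicate 1 lay above the mCherry-negative libraries. Aldh1a7 in HT mice was 7.31, 6.23 and 4.95 TPM in mCherry-negative cells and 19.5, 4.83 and 3.47 TPM in OSN. There again OSN replicate 1 lay above, and the other OSN libraries below, all mCherry-negative ones.

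The remaining members were lower. Ugt2a1 was 80.9, 7.84, 12.3, 17.8 and 7.07 TPM in MexHT mCherry-negative cells and 3.29 to 26.6 TPM in MexHT OSN, with a median of 7.89. Ermn was 30.55, 2.71, 6.63, 8.27 and 3.44 TPM in the former and 2.05 to 6.999 TPM in the latter, with a median of 3.38. Both overlapped widely, with mCherry-negative replicate 1 far above every other library. Ugt2a2 was 1.01 to 7.35 TPM in MexHT mCherry-negative cells and 0.947 to 1.91 TPM in MexHT OSN, resting on 6 to 65 counts a library. Muc2 was 2.77, 1.09, 1.66, 0.934 and 1.05 TPM in MexHT mCherry-negative cells, against 1.18 to 10.1 TPM and a median of 3.36 in MexHT OSN. In HT mice Muc2 was 3.18, 1.91 and 0.479 TPM in mCherry-negative cells and 28.9, 5.84 and 7.13 TPM in OSN, with no overlap.

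**Figure D1:**
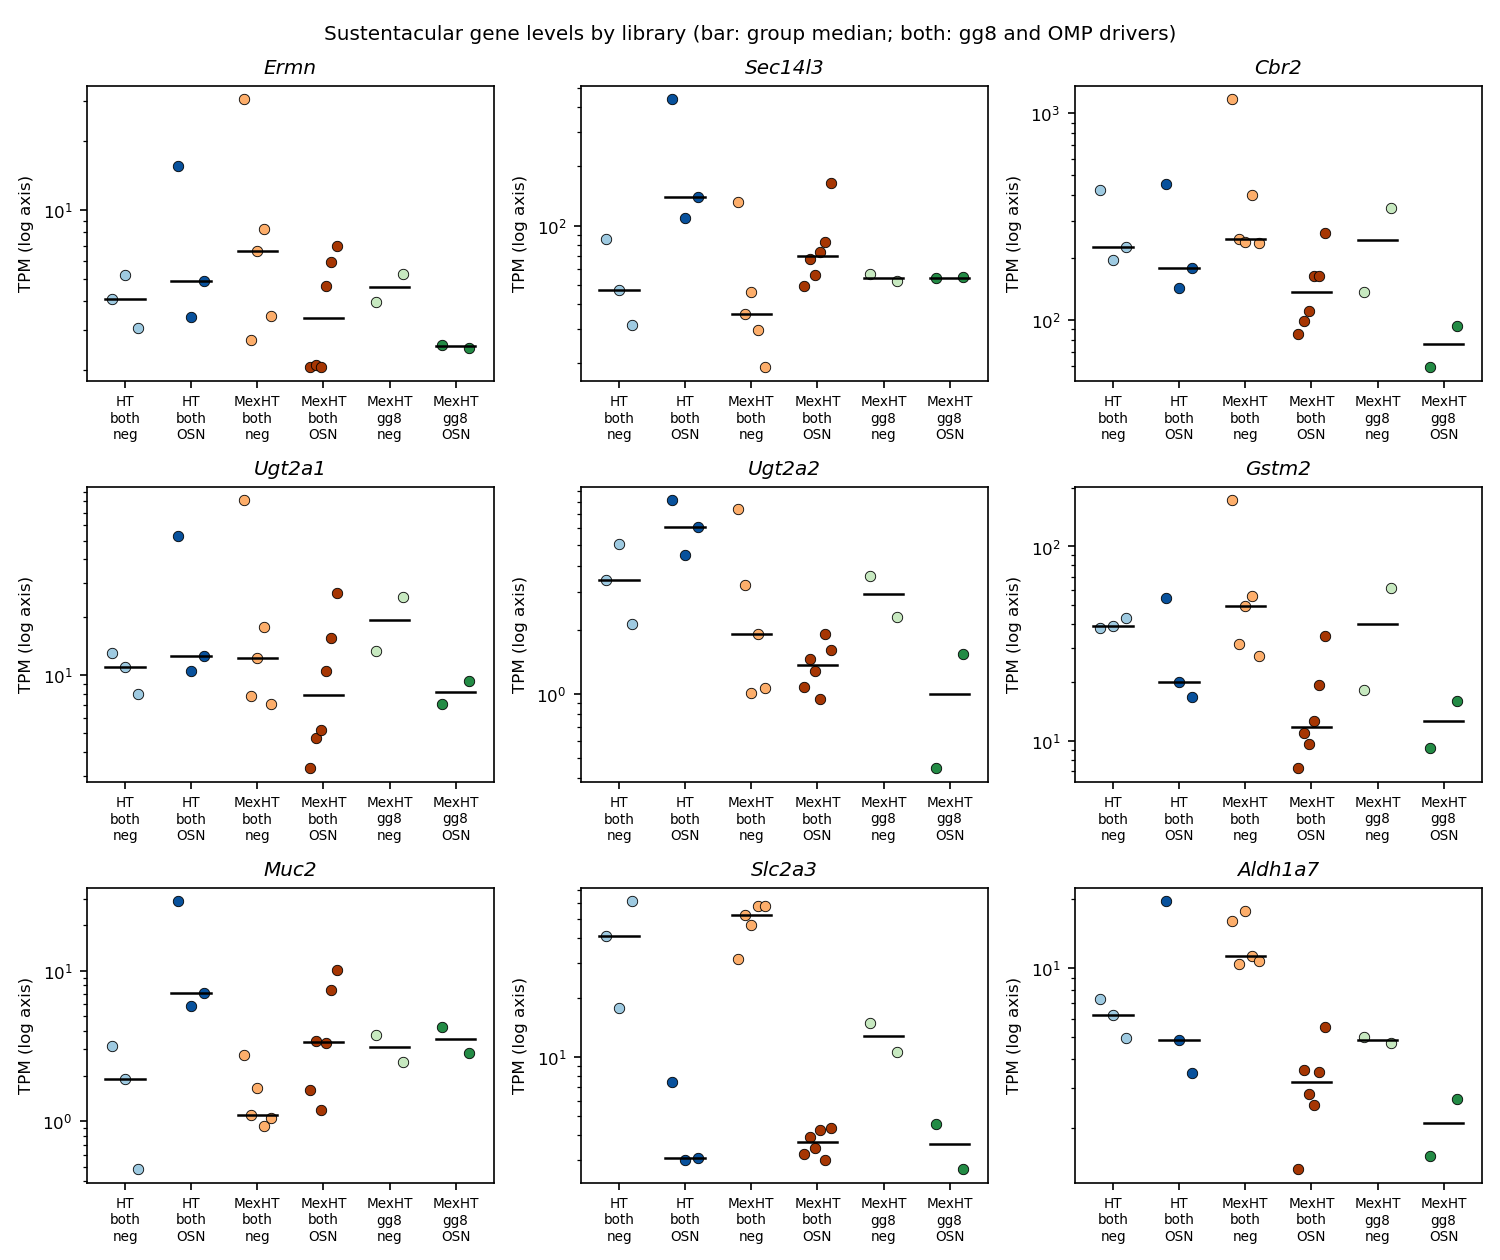
Level of each of the 9 genes in every library (TPM, logarithmic vertical axes that differ between panels), by construct, driver set (both is gg8tTA with OMPtTA) and fraction (neg is mCherry-negative); a point is one library and a bar is the group's median. Slc2a3 lies at 3.001 to 7.46 TPM in all OSN libraries with both drivers and at 17.7 to 61.4 TPM in their mCherry-negative partners, whereas Sec14l3 and Muc2 lie higher in most OSN libraries.

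The first comparison asked how the listed genes differed between construct-bearing OSN and the mCherry-negative cells of MexHT mice with both drivers. Of the 9 members, 4 fell in OSN, led by the glucose transporter Slc2a3, and none rose. Differences are given on the log2(TPM + 1) scale, which understates changes of low genes, with limma's standard error and the p-value adjusted over all genes by the Benjamini-Hochberg method. Of the 16522 genes tested, 63.4% passed the adjusted threshold of 0.05, 35.8% higher and 27.6% lower in OSN, so calls were common among all genes too. The members' median difference was -0.84, against 0.16 for all genes tested, a median that was 0.03 with median-of-ratios scaling. In these bulk samples, fewer cells of a type and less RNA per cell cannot be told apart.

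Slc2a3 fell by 3.40 on the log2 scale (SE 0.174, limma adjusted p = 1.02e-08), which is 10.5-fold on the TPM + 1 scale, and was lower in OSN in 5 of 5 mice. Gstm2 fell by 1.87 (SE 0.465, limma adjusted p = 0.00367), Aldh1a7 by 1.79 (SE 0.252, limma adjusted p = 5.42e-05) and Cbr2 by 1.41 (SE 0.414, limma adjusted p = 0.00971). Each of these was also lower in OSN in 5 of 5 mice, and the 4 calls held without any single library. Immune cells also use this glucose transporter. Summed immune markers stood at 4138 to 5354 TPM in MexHT mCherry-negative cells and at 169.4 to 315.2 TPM in MexHT OSN, with 6 of 8 lower, 1 higher and none at 0. Their part in the Slc2a3 result was not tested. Markers of other epithelial cells were also lower in MexHT OSN. Those of Bowman's gland and duct summed to 100.3 to 289.4 TPM in mCherry-negative cells and 18.9 to 38.2 TPM in OSN, with 4 of 5 lower and none at 0. Those of horizontal basal cells summed to 203.0 to 1129 TPM and 10.5 to 18.1 TPM, with 5 of 5 lower and Krt15 at 0 in an OSN library. Those of microvillous cells summed to 122.3 to 688.6 TPM and 13.5 to 22.2 TPM, with 4 of 5 lower and Ascl3 at 0 in an OSN library. Their part in the lower levels of Cbr2, Gstm2 and Aldh1a7 was not tested.

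The lipid-binding protein Sec14l3 and the mucin Muc2 had estimates in the other direction that did not pass the test. Sec14l3 differed by 0.84 (95% interval -0.08 to 1.76, limma adjusted p = 0.101) and was higher in OSN in 4 of 5 mice. Muc2 differed by 0.94 (limma adjusted p = 0.0556) and was higher in OSN in 3 of 5 mice. Without MexHT mCherry-negative replicate 1 both passed, with 1.25 for Sec14l3 (limma adjusted p = 0.00534) and 1.10 for Muc2 (limma adjusted p = 0.0397). Muc2 also passed without MexHT OSN replicate 1 (1.11, limma adjusted p = 0.0321) or OSN replicate 3 (1.16, limma adjusted p = 0.0189). Ermn (-0.84, limma adjusted p = 0.158), Ugt2a1 (-0.83, limma adjusted p = 0.260) and Ugt2a2 (-0.51, limma adjusted p = 0.200) did not pass, and each had a mouse in which OSN were higher. Without MexHT mCherry-negative replicate 1 these estimates shrank to -0.36 for Ermn, -0.26 for Ugt2a1 and -0.18 for Ugt2a2, while Cbr2 stood at -0.99 (limma adjusted p = 0.0116) and Gstm2 at -1.44 (limma adjusted p = 0.00555).

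**Figure D2:**
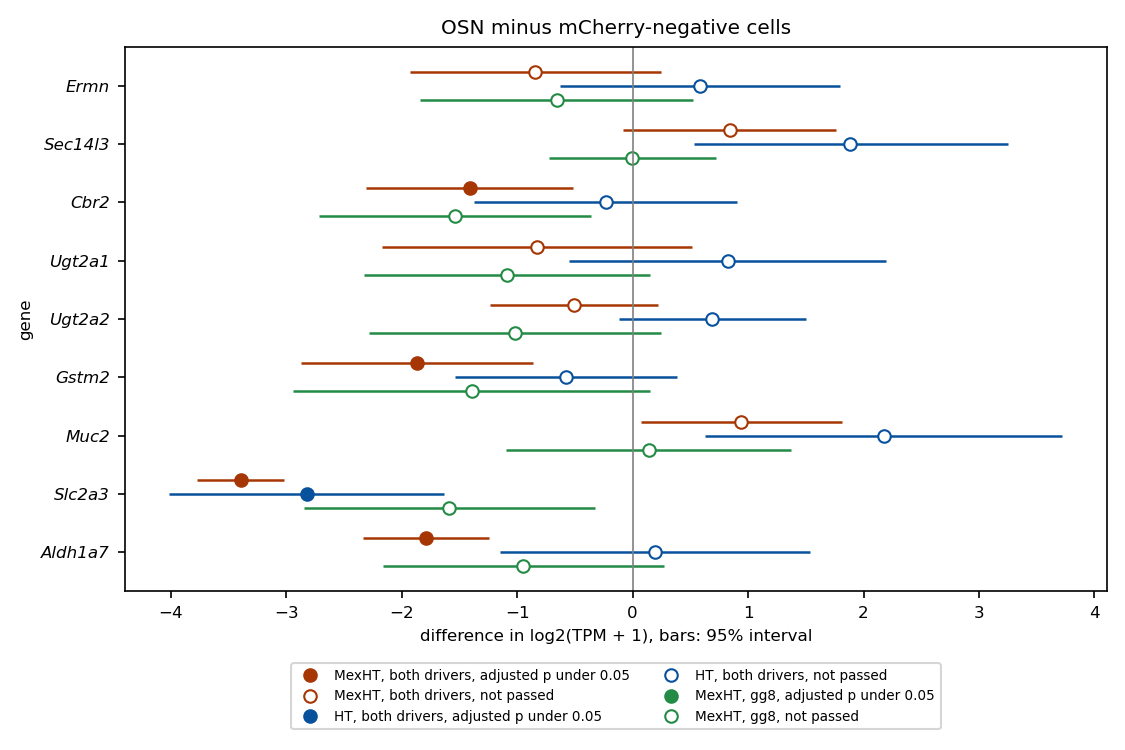
OSN minus mCherry-negative difference in log2(TPM + 1) for the 9 genes (horizontal axis), by limma, in MexHT and HT mice with both drivers and in MexHT mice with gg8tTA alone; bars are 95% intervals and filled points passed an adjusted p of 0.05. Slc2a3 is filled in both sets with both drivers, at -3.40 and -2.82, and the points for Sec14l3 and Muc2 lie to the right of the other genes in these sets.

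The same comparison in HT mice asked whether the fractions differed where no Mex3a was added. Slc2a3, 7.08-fold lower in OSN on the TPM + 1 scale, was the only member of the 9 that passed (-2.82, SE 0.501, limma adjusted p = 0.0167, lower in 3 of 3 mice), where 11.3% of 17027 genes passed, 2.18% higher and 9.11% lower. Its call was lost without HT OSN replicate 2 (-2.64, limma adjusted p = 0.0680), with HT mCherry-negative replicate 1 left out (-2.72, limma adjusted p = 0.0839) and with voom on recovered counts (-3.16, limma adjusted p = 0.0673). Summed immune markers stood at 2071 to 4921 TPM in HT mCherry-negative cells and 623.7 to 2606 TPM in HT OSN, with 3 of 8 lower and 2 higher. The sum therefore mixes genes that moved both ways. In HT mCherry-negative replicates 1 to 3 it was 4014, 2071 and 4921 TPM, with Slc2a3 at 41.1, 17.7 and 61.4 TPM. In HT OSN replicates 1 to 3 it was 823.8, 623.7 and 2606 TPM, with Slc2a3 at 7.46, 3.02 and 3.07 TPM. The part of immune cells was not tested here either.

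Muc2 and Sec14l3 had the largest positive estimates of the 9. Muc2 differed by 2.18 (SE 0.650, limma adjusted p = 0.0749) and Sec14l3 by 1.89 (SE 0.572, limma adjusted p = 0.0770), each higher in OSN in 3 of 3 mice. With the mouse as a replicate block, both passed (limma adjusted p = 0.0149 for Muc2 and 0.00652 for Sec14l3), and so they did with all 4 groups in one fit (limma adjusted p = 0.0222 and 0.0461). The other members gave estimates from -0.58 for Gstm2 to 0.82 for Ugt2a1, none of which passed. Gstm2 passed without HT OSN replicate 1 (-1.08, limma adjusted p = 0.0264), the library in which all 9 members stood highest in its group. Aldh1a7 differed by 0.19 (limma adjusted p = 0.830) and by -0.47 without that library.

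With gg8tTA alone, in a separately scaled table, none of the 9 members passed limma's adjusted threshold, where 8.32% of 16490 genes did, 1.12% higher and 7.20% lower. With voom the count of members was also 0, and at an unadjusted p under 0.05 limma gave 5111 genes, Cbr2 and Slc2a3 among them. Cbr2 differed by -1.54 (SE 0.491, limma adjusted p = 0.0975) and passed with the mouse as a replicate block (limma adjusted p = 0.0370). Slc2a3 differed by -1.59 (SE 0.527, limma adjusted p = 0.106), and both genes were lower in OSN in 2 of 2 mice. Sec14l3 differed by 0.00 (95% interval -0.72 to 0.72) and Muc2 by 0.14 (95% interval -1.09 to 1.38). The mCherry-negative fraction of these mice was rich in mature OSN markers. They summed to 4880 to 8325 TPM there and to 156.8 to 563.3 TPM in gg8tTA OSN, with 6 of 8 lower. In MexHT mice with both drivers these sums were 355.2 to 4435 and 1470 to 4333 TPM. The fractions compared were therefore not the same in both driver sets, and the part of mature OSN was not tested. The driver set and the date in the library names cannot be told apart, so no test was made between the tables.

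In every mouse but MexHT mouse 1 with both drivers the members split in direction, in some mice by a single gene. In HT mouse 1 the OSN over mCherry-negative ratio of TPM values was 9.08 for Muc2, 5.14 for Sec14l3 and 1.07 for Cbr2. Every member but Slc2a3, at 0.182, was above 1 there. In MexHT mouse 5 with both drivers it was 7.10 for Muc2 and 4.30 for Sec14l3, but 0.693 for Cbr2 and 0.0516 for Slc2a3. In MexHT mouse 1, whose pair includes the mCherry-negative library that stood apart, all 9 members were lower in OSN, with ratios of 0.373 for Sec14l3 and 0.583 for Muc2. Sec14l3 was lower in OSN in no other MexHT mouse with both drivers, and Muc2 was lower also in mouse 3, at 0.710. With gg8tTA alone every member but Muc2 (1.13) was lower in OSN of mouse 1. In gg8tTA mouse 2 every member but Muc2 (1.15) and Sec14l3 (1.04) was lower in OSN.

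The other sustentacular markers were split in a like manner. Of 9 listed, 6 fell in OSN of MexHT mice and 4 in OSN of HT mice, and none rose. Krt18 and Krt8, keratins of simple epithelia, fell by 2.78 (limma adjusted p = 3.05e-05) and 2.71 (limma adjusted p = 2.47e-05) in MexHT mice. They fell by 2.04 (limma adjusted p = 0.0181) and 2.05 (limma adjusted p = 0.00816) in HT mice. The cytochromes P450, which oxidise odorants, were not alike. Cyp2f2 fell by 2.32 in MexHT OSN (limma adjusted p = 5.67e-05) and by 1.96 in gg8tTA OSN (limma adjusted p = 0.0424), and differed by -0.57 in HT OSN (limma adjusted p = 0.606). Cyp2g1, Cyp2a5 and Cyp1a2 did not pass in any set. Their differences were 0.45, 0.01 and -0.08 in MexHT mice and 2.04, 1.70 and 1.73 in HT mice, where all were higher in OSN in 3 of 3 mice. With gg8tTA alone all 3 were lower in OSN in 2 of 2 mice. Markers of respiratory ciliated cells were higher in OSN with both drivers, as the estimates of Sec14l3 and Muc2 were: 4 of 4 rose in MexHT OSN and 1 of 4 in HT OSN, with summed levels of 82.99 to 280.5 TPM in MexHT mCherry-negative cells against 326.3 to 476.6 TPM in MexHT OSN. In HT mice the sums were 266.0 to 447.6 TPM in mCherry-negative cells and 482.7 to 621.2 TPM in OSN, no marker of the list was at 0, and OSN also build cilia. With gg8tTA alone the sums were 301.7 and 391.2 TPM in mCherry-negative cells and 108.9 and 224.4 TPM in OSN, all 4 estimates were negative and none passed, while Sec14l3 and Muc2 stood at 0.00 and 0.14. The part of these cells in the result was not tested.

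**Figure D3:**
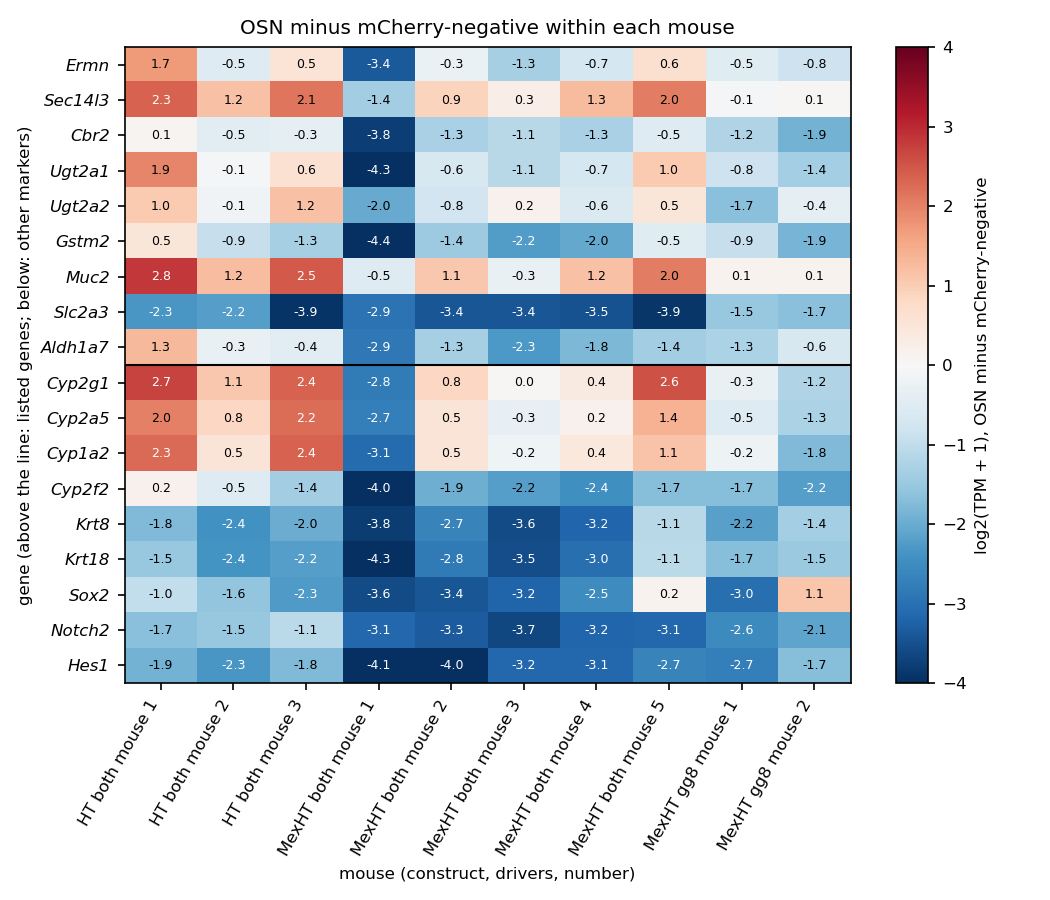
Difference in log2(TPM + 1) between OSN and mCherry-negative cells within each of the 10 mice that have both libraries (columns; both is gg8tTA with OMPtTA), for the 9 genes above the line and 9 other sustentacular markers below it; red is higher and blue lower in OSN. The rows of Slc2a3, Krt8, Krt18, Notch2 and Hes1 are blue in every mouse. Sec14l3, Muc2 and Cyp2g1 are higher in OSN in HT mice 1 to 3 and in MexHT mice 2, 4 and 5 with both drivers.

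Sec14l3 was then set against Cbr2 within each library. This ratio of TPM values was chosen after its values were seen, among 9 ratios computed, so it is a description with no test. It was 0.113, 0.145, 0.193, 0.0737 and 0.0808 in MexHT mCherry-negative replicates 1 to 5 and 0.449 to 0.682 in MexHT OSN, with a median of 0.543. In HT mice it was 0.201, 0.243 and 0.138 in mCherry-negative cells and 0.963, 0.770 and 0.788 in OSN. With gg8tTA alone it was 0.416 and 0.15 in mCherry-negative cells and 0.919 and 0.583 in OSN. Fractions did not overlap in any of these sets, and MexHT mCherry-negative replicate 1, whose levels stood apart, lay within its group by this ratio. The ratio of Muc2 to Cbr2 also did not overlap, at 0.00232 to 0.00697 in MexHT mCherry-negative cells and 0.0108 to 0.0456 in MexHT OSN. The ratio of Gstm2 to Cbr2 did overlap, at 0.116 to 0.206 in the former and 0.0772 to 0.130 in the latter. The separation was not particular to Sec14l3 and Muc2. The ratio of Cyp2g1 to Cbr2 also did not overlap, at 0.0438 to 0.156 in MexHT mCherry-negative cells and 0.253 to 0.412 in MexHT OSN, and at 0.0307 to 0.148 and 0.222 to 0.621 in HT mice. The ratio of Sec14l3 to Cyp2g1 overlapped, at 0.755 to 2.40 and 1.25 to 2.48 in MexHT mice and at 1.64 to 4.50 and 1.55 to 3.54 in HT mice.

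**Figure D4:**
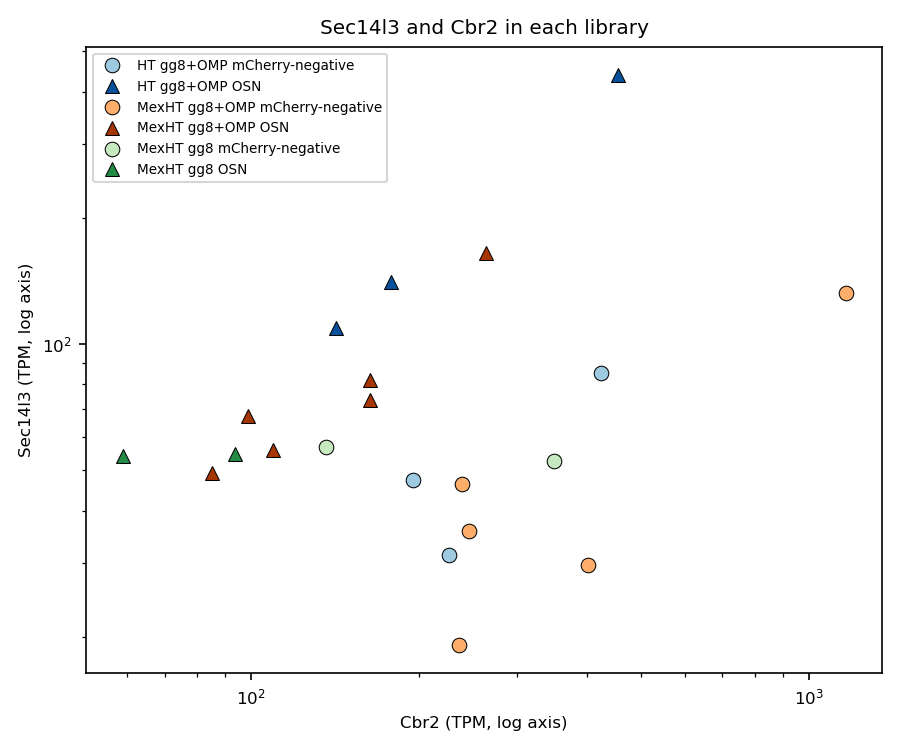
Sec14l3 against Cbr2 in each of the 21 libraries (TPM, both axes logarithmic), with circles for mCherry-negative cells, triangles for OSN and colours for construct and drivers; a point is one library. For a given Cbr2 level the OSN libraries lie above the mCherry-negative ones, with Sec14l3 over Cbr2 ratios of 0.449 or more in OSN and 0.416 or less in mCherry-negative cells.

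The comparison of MexHT with HT in mCherry-negative cells asked whether member levels in that fraction differed between the constructs. Both fractions held RNA of the members. With both drivers they summed to 328.8 to 619.4 TPM in HT mCherry-negative cells and 303.2 to 1079 TPM in HT OSN. In MexHT mice the sums were 364.3 to 1640 TPM in mCherry-negative cells and 154.2 to 518.6 TPM in OSN. None of the 9 members passed, and with limma 0% of 16860 genes did, nor did any with voom, while 3465 had an unadjusted limma p under 0.05. The largest estimate among the members was that of Aldh1a7, at 13.2 TPM ± 3.37 (SD, n = 5) in MexHT and 6.16 ± 1.18 (SD, n = 3) in HT. All 5 MexHT libraries lay above all 3 HT libraries. The log2 difference was 0.97 (95% interval 0.46 to 1.49, limma adjusted p = 0.218). The other estimates ran from -0.38 for Ugt2a2 to 0.70 for Ermn. Their 95% intervals were wide, for example -1.55 to 1.02 for Sec14l3 and -0.76 to 1.68 for Cbr2. Differences of either sign within these intervals remained compatible with the values. Without MexHT mCherry-negative replicate 1 the estimates were 0.21 for Ermn, 0.0043 for Ugt2a1, 0.042 for Cbr2, -0.028 for Gstm2, -0.67 for Sec14l3, -0.71 for Ugt2a2, -0.27 for Muc2, 0.58 for Slc2a3 and 0.90 for Aldh1a7, and none passed. Same-numbered libraries of both constructs deviated together, although they came from different mice. With the replicate number as a block the Sec14l3 estimate was 0.26 in place of -0.26, neither of which passed. That block leaves only replicates 1 to 3, the numbers found in both constructs, to set the estimate, so the 2 estimates rest on different MexHT libraries.

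In OSN the same comparison gave lower estimates in MexHT than in HT for all 9 members, with a median of -1.01 against 0.03 over all genes. Of the 9, the glucuronosyltransferase Ugt2a2 and the lipid-binding Sec14l3 passed the test, 2 in all, where 36.8% of 16067 genes passed, 19.9% higher and 16.8% lower. Ugt2a2 was 8.10, 4.49 and 6.07 TPM in HT OSN and 0.947 to 1.91 TPM in MexHT OSN, with no overlap. It fell by 1.58 (SE 0.240, limma adjusted p = 0.00110), which is a difference in a gene with 6 to 73 counts a library and with shared exons. Ugt2a1, which holds the same shared exons, differed by -1.08 (SE 0.644, limma adjusted p = 0.208) and overlapped between the groups.

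Sec14l3, at 437.7, 109.2 and 140.2 TPM in HT OSN and 49.2 to 164.6 TPM in MexHT OSN, fell by 1.31 (SE 0.449, limma adjusted p = 0.0421). Only MexHT OSN replicate 6 reached the HT range. This call rested on single libraries: without HT OSN replicate 1 the difference was -0.71 (limma adjusted p = 0.200), and without HT OSN replicate 3 or without any of MexHT OSN replicates 1 to 5 the limma adjusted p was 0.0530 to 0.0729. It was kept under 4 of 16 alternatives. With the Xist level of each library in the fit, Sec14l3 differed by -0.57 (limma adjusted p = 0.682) and Ugt2a2 by -1.21 (limma adjusted p = 0.140), so neither passed, and construct and sex cannot be fully told apart here. Markers of other cells moved with the same contrast. Summed immune markers were 623.7 to 2606 TPM in HT OSN and 169.4 to 315.2 TPM in MexHT OSN, and 5 of 8 were lower in MexHT. Summed mature OSN markers were 5446 to 8552 TPM in HT OSN and 1470 to 4333 TPM in MexHT OSN, with 7 of 8 lower. Their part in the result was not tested.

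The other members did not pass in OSN. Muc2 differed by -1.35 (95% interval -2.67 to -0.03, limma adjusted p = 0.1002), Aldh1a7 by -1.01 (95% interval -2.05 to 0.02, limma adjusted p = 0.113) and Gstm2 by -0.89 (limma adjusted p = 0.161). Slc2a3 had the smallest estimate, -0.15 (95% interval -0.74 to 0.45), and it was 0.21 without HT OSN replicate 1 and 0.25 with the Xist level in the fit. HT OSN replicate 1 was the highest of its group for 9 of 9 members, and its other sustentacular markers summed to 1352 TPM, against 343.0 and 310.9 TPM in the other HT OSN libraries.

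**Figure D5:**
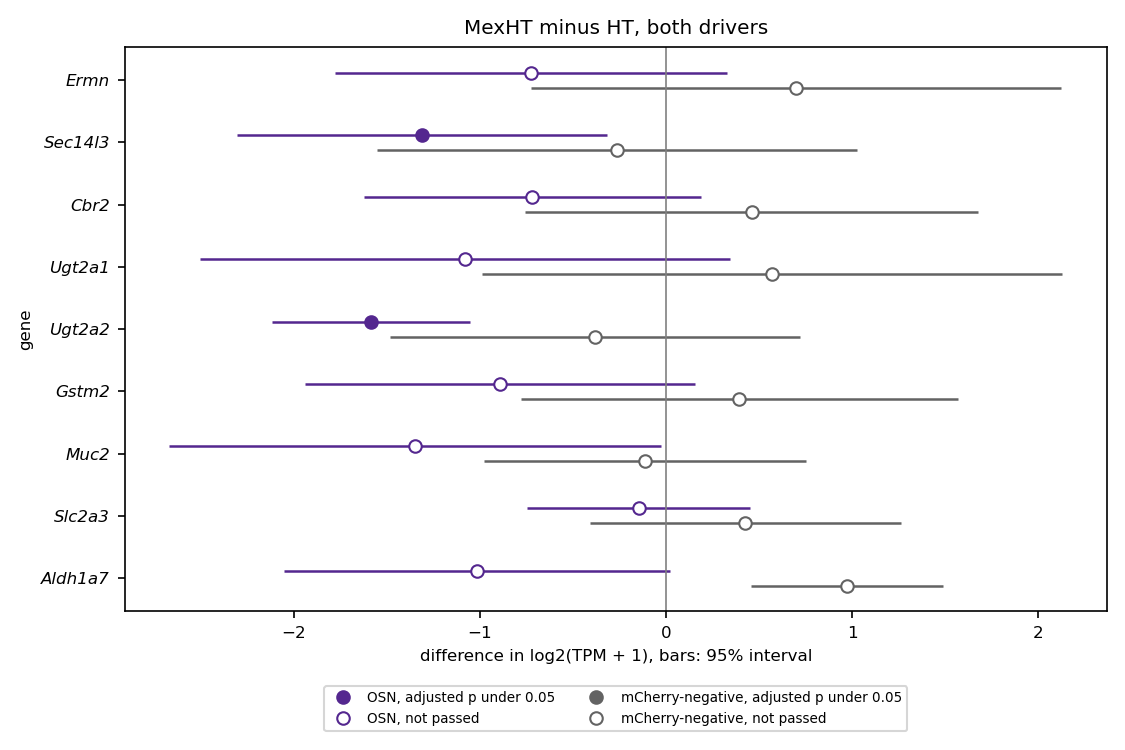
MexHT minus HT difference in log2(TPM + 1) for the 9 genes (horizontal axis), by limma, in OSN and in mCherry-negative cells of mice with both drivers; bars are 95% intervals and filled points passed an adjusted p of 0.05. All 9 OSN points lie left of 0, with Ugt2a2 at -1.58 and Sec14l3 at -1.31 filled, and no mCherry-negative point is filled.

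Whether the difference between OSN and mCherry-negative cells itself depended on the construct was tested as an interaction over the 17 libraries with both drivers. Aldh1a7, the aldehyde dehydrogenase, was the only member of the 9 that passed, where 12.4% of 16785 genes did, 7.05% higher and 5.37% lower. Of the genes that passed, 56.8% were higher, and 40.4% with median-of-ratios scaling, under which all 9 members' estimates stayed negative. Its OSN minus mCherry-negative difference was -1.79 in MexHT and 0.19 in HT mice, an interaction of -1.99 (SE 0.563, limma adjusted p = 0.0299). In single mice it was lower in OSN in 5 of 5 MexHT and 2 of 3 HT mice. The call was lost without HT OSN replicate 1 (-1.32, limma adjusted p = 0.0691), with HT mCherry-negative replicate 2 or 3 left out (limma adjusted p = 0.0644 and 0.0611) and without MexHT mCherry-negative replicate 3 (limma adjusted p = 0.0513). The estimates of the other 8 members were also negative, from -0.57 for Slc2a3 to -1.65 for Ugt2a1, and none of those passed. Without MexHT mCherry-negative replicate 1 they ran from -0.64 for Sec14l3 to -1.08 for Ugt2a1, and Aldh1a7 stood at -1.91 (limma adjusted p = 0.0439).

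The members were next compared with each other over the 8 mCherry-negative libraries with both drivers. For each gene, Pearson's r between its log2(TPM + 1) and the mean of the other 8 members, each centred, was taken as a description. It was 0.978 for Ugt2a1, 0.932 for Cbr2, 0.922 for Gstm2, 0.911 for Ermn and 0.784 for Sec14l3. Muc2 (0.585), Ugt2a2 (0.546) and Aldh1a7 (0.449) followed the others less closely. Slc2a3 went the other way, at -0.416, so in these libraries it did not follow the supporting-cell genes it is listed with. Its lowest mCherry-negative level with both drivers, 17.7 TPM in HT replicate 2, was in the library with the lowest summed immune markers of its kind, 2071 TPM, and also with the lowest summed markers of connective tissue and vessels, 7832 TPM. By rising connective tissue sum the order was HT replicate 2, MexHT 1, MexHT 3, HT 1, MexHT 2, HT 3, MexHT 4, MexHT 5. In that order these sums were 7832, 11080, 13410, 13950, 15890, 18390, 19550 and 23580 TPM. Slc2a3 was 17.7, 31.45, 46.5, 41.1, 52.1, 61.4, 58.3 and 58.1 TPM, so it was higher in most libraries with higher sums. The immune sums were 2071, 4360, 4138, 4014, 4700, 4921, 4623 and 5354 TPM in the same order. The part of these cells was not tested. Much of the likeness came from MexHT mCherry-negative replicate 1: without it, r was 0.859 for Ugt2a1, 0.656 for Cbr2, 0.532 for Ermn, 0.526 for Gstm2, 0.463 for Sec14l3 and 0.449 for Muc2. Ugt2a2 then stood at -0.143, Aldh1a7 at 0.0794 and Slc2a3 at -0.366, so these 3 did not follow the others without that library.

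Over those libraries 13466 genes averaged 5 TPM or more, members of that level included. With members and predicted genes (Gm numbers, Rik names and pseudogenes ending in -ps) left out, the 5 most like the mean of the 9 members were Mgat3, Pdpn, Gsta3, Sgk1 and Gcat. Mgat3, a glycosyltransferase that adds the bisecting sugar of N-glycans, had r = 0.994, and 0.963 without MexHT mCherry-negative replicate 1. Pdpn, the surface glycoprotein podoplanin, had r = 0.987 (0.958 without that library) and Gsta3, an alpha-class glutathione S-transferase, r = 0.984 (0.901). Sgk1, a kinase induced by glucocorticoids, had r = 0.981 (0.962) and Gcat, a mitochondrial enzyme of threonine breakdown, r = 0.978 (0.856). All of these correlations are over 8 libraries of one table, and the 5 genes were picked for their r.

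The gene families of the members were counted in the same fits, to be read against 35.8% higher and 27.6% lower of all genes in MexHT OSN and 2.18% higher and 9.11% lower in HT OSN. No test compared the families. The glutathione S-transferases other than Gstm2 had 4 of 17 tested genes higher and 8 lower in MexHT OSN than in MexHT mCherry-negative cells, and 2 of 17, Gstm5 and Mgst2, lower in HT OSN. Mgst3, a microsomal family member, rose by 0.79 (limma adjusted p = 2.04e-05) in MexHT OSN, while Gstm1, of the same class as Gstm2, fell by 1.82 (limma adjusted p = 0.00206). Gstm5 fell by 0.70 in HT OSN (limma adjusted p = 0.0374). In MexHT OSN it differed from mCherry-negative cells by 0.51 (limma adjusted p = 0.308), and it was higher in MexHT than in HT OSN by 1.81 (limma adjusted p = 0.0105). The aldehyde dehydrogenases other than Aldh1a7 had 12 of 18 lower and 2 higher in MexHT OSN, and 5 of 18 lower in HT OSN, with medians of -1.03 and -0.34. Aldh2, the mitochondrial enzyme of ethanol breakdown, fell by 2.33 (limma adjusted p = 3.23e-07) in MexHT OSN. Aldh1a1, a retinaldehyde dehydrogenase and the closest relative of Aldh1a7, fell in OSN of every set. It differed by -2.56 (limma adjusted p = 0.000131) in MexHT, -1.64 (limma adjusted p = 0.0358) in HT and -2.41 (limma adjusted p = 0.0388) in gg8tTA mice. The others that fell in HT OSN were Aldh1a2, Aldh1a3, Aldh1l1 and Aldh3a1, and the 2 that rose in MexHT OSN were Aldh4a1 and Aldh5a1.

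Of 16 other UDP-glucuronosyltransferases in the table, 1 passed the filter on low values in the MexHT fractions. Ugt1a7c fell by 2.45 in MexHT OSN (limma adjusted p = 2.68e-07) and was lower in MexHT than in HT OSN by 1.42 (limma adjusted p = 0.0137). Of 3 genes that supply UDP-glucuronate, 2 fell in MexHT OSN, Ugdh by 1.03 and Ugp2 by 0.69 (limma adjusted p = 1.84e-05 and 0.00197), and none passed in HT OSN. Of 4 other carbonyl reductases, Cbr1 rose by 0.86 in MexHT OSN (limma adjusted p = 1.85e-05), the direction opposite to Cbr2, with 0.33 (limma adjusted p = 0.115) in HT OSN. Cbr3 fell by 1.66 in MexHT OSN (limma adjusted p = 0.00136). Dcxr (-0.15, limma adjusted p = 0.751) and Cbr4 (0.38, limma adjusted p = 0.0761) did not pass in MexHT OSN.

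Of the 4 other Sec14-like genes, 2 rose in MexHT OSN and 1 in HT OSN. Sec14l1 rose by 0.88 (limma adjusted p = 2.05e-06) and 0.46 (limma adjusted p = 0.0441). Sec14l4 rose by 1.34 in MexHT OSN (limma adjusted p = 6.88e-05), and Sec14l2 did not pass in either set. Sec14l5 did not pass in those sets but fell by 3.70 in gg8tTA OSN (limma adjusted p = 0.0379), and was lower in MexHT than in HT OSN by 1.91 (limma adjusted p = 0.00158). Of 6 other mucins tested, 5 fell and 1, Muc6, rose in MexHT OSN. In HT OSN 2 fell, with 3 estimates positive and 3 negative. Muc20 differed by -3.70 (limma adjusted p = 2.28e-06) in MexHT and -3.26 (limma adjusted p = 0.00339) in HT OSN. Muc1, a membrane mucin, differed by -2.37 (limma adjusted p = 6.64e-05) and -2.28 (limma adjusted p = 0.0154). Muc4 fell by 1.68 in MexHT OSN (limma adjusted p = 0.00194). Among the other glucose transporters, 5 of 8 fell and 2 rose in MexHT OSN. Slc2a1, the transporter GLUT1, fell by 1.16 (limma adjusted p = 1.25e-05), Slc2a6 fell by 1.29 (limma adjusted p = 0.000276) and Slc2a8 rose by 0.85 (limma adjusted p = 0.000118), with Slc2a13 the other that rose.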

How the data were processed

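Both tables were deposited by the authors as TPM values per gene symbol, 1 for the 17 libraries with both drivers and 1 for the 4 gg8tTA libraries. Per the labels' protocols, cells were freed with papain, RNA was extracted with TRIzol, and libraries were made from 10 ng with a stranded total RNA kit. Per the submitters' processing notes, FastQC, cutadapt, STAR, bedtools and mm10 were named. The counting program, annotation and use of strand are not given in the sources used here. Since the tables were scaled separately, tests were made only within a table. Genes whose symbols had become dates (27 in either table) were left out.

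TPM values do not state depth. Within a gene they were whole multiples of one step, which gave whole counts for 23184 of 23185 genes checked with both drivers and 22591 of 22600 (99.96%) with gg8tTA. Genes above 0 in fewer than 2 libraries were not checked. These recovered counts served for depth and for an alternative test, and no molecular identifiers are described, so they cover counting error only.

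For each comparison log2(TPM + 1) values of the groups concerned, and no others, entered a limma model (version 3.58.1, R 4.3.3, with a mean-variance trend). Genes averaging under 1 TPM in those libraries were left out. Tests were two-sided, with Benjamini-Hochberg adjustment over all genes and a threshold of 0.05. The fit was tested on simulated data. Per the labels, OSN and mCherry-negative libraries of one number came from one mouse, and their deviations from group means correlated at -0.109 to 0.421 in MexHT, 0.174 to 0.475 in HT and 0.0178 in gg8tTA mice. For MexHT against HT in mCherry-negative cells the same-number correlations were 0.231, 0.337 and 0.418. Alternatives were a pseudocount of 0.1, no filter on low values, median-of-ratios scaling, voom on recovered counts, the replicate block, all 4 groups with both drivers in one fit, the Xist level as a covariate, and leaving out each library.

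Besides the 9 members, genes were named by rule: the 5 most like the members over 8 mCherry-negative libraries, predicted genes left out, at most 3 of each related list by mean TPM there, and Mex3a. Omp, Xist, Cyp2g1, Cyp2a5, Cyp1a2, Krt15, Ascl3, Notch2, Hes1 and the further family members behind counts of 5 or fewer were named after their values were seen. The members and lists were chosen with earlier results of these data known. Loci and sequences are from GRCm38 with GENCODE M21. Editing sites were not analysed here.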

Additional observations from a re-analysis of the deposited data

Results flagged for a closer look

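In MexHT mCherry-negative replicate 1, with both drivers, 5 members lay far above the other 4 libraries of the group: Ermn at 30.55 TPM, Sec14l3 at 132.0 TPM, Cbr2 at 1166 TPM, Ugt2a1 at 80.93 TPM and Gstm2 at 172.6 TPM. In MexHT OSN replicate 6, Sec14l3 lay far above the other libraries at 164.6 TPM. These were 6 of 18 pairs of group and member examined by Dixon's rule, the gap to the nearest value over the range, on TPM values. Chance flags about 1 in 20 only if values are normally distributed, which was not checked and which skewed TPM values may not meet. The 5 in one library are also not independent of each other. Aldh1a7 differed between the constructs in its OSN minus mCherry-negative difference, with an interaction of -1.99.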

How the results depend on the processing

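The share of all genes that passed can also change with the setting and is not given here for the alternatives. A changed count of members is therefore not a result about the members. Of 4 members called between MexHT OSN and mCherry-negative cells, leaving out single libraries gave 4 to 6. For HT OSN the 1 call became 0 with voom, 3 with the replicate block and 3 with all 4 groups in one fit, and 0 to 2 without single libraries. For gg8tTA OSN the 0 calls became 1 with the replicate block. For MexHT against HT in OSN the 2 calls became 1 without the filter on low values, 1 with voom, 1 with all 4 groups in one fit and 0 with the Xist level, and 1 to 2 without single libraries. There the replicate numbers pair no mice and correlated at -0.228 to 0.132, and the replicate block gave 1 call. For the interaction the 1 call became 0 or stayed 1 without single libraries. For MexHT against HT in mCherry-negative cells the count was 0 under every alternative run. Besides the calls named with HT and gg8tTA OSN in the results, the replicate block changed no other call of paired libraries. Estimates that changed sign did not pass the test in any setting where they did so. For MexHT against HT in mCherry-negative cells, Muc2 was 0.055 with voom, 0.075 with the replicate block and -0.53 to 0.22 without single libraries. Sec14l3 there was 0.26 with the replicate block, 0.084 with the Xist level and -0.67 to 0.11 without single libraries. The replicate block there rests on replicates 1 to 3 only and pairs no mice. Over single libraries left out, Gstm2 there ran from -0.028 to 0.63 and Slc2a3 from -0.060 to 0.81. In OSN, Slc2a3 between the constructs was 0.25 with the Xist level and -0.33 to 0.21 over single libraries left out. Between HT fractions, Cbr2 ran from -0.74 to 0.10 and Aldh1a7 from -0.47 to 0.62, and between gg8tTA fractions, Sec14l3 from -0.057 to 0.053 and Muc2 from -0.086 to 0.37. The cause of these changes was not tested. With 2 or 3 libraries in several groups and 4 to 73 counts for Ugt2a2, small differences could not be seen.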
